A study of Rattus norvegicus with 5 samples.

Results

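A group of 10 genes that fold proteins in the endoplasmic reticulum, the compartment where secreted and membrane proteins are made, was read on the 5 arrays of the series. They were chosen by name: the chaperones Hspa5, Hsp90b1, Canx and Calr, the disulfide isomerases Pdia3, Pdia4 and Pdia6, and the chaperone partners Hyou1, Dnajb9 and Dnajc3. All 10 genes were on the array, with 1 probe and 1 spot each, so 10 of 30367 probes and 10 of 15167 named genes were described, and all 10 probes were well above background on all 5 arrays by the scanner software's own call. The series holds 5 one-colour Agilent arrays of BRL-3A, an established cell line derived from the liver of a Buffalo rat. The cells carried a Tmub1 overexpression lentivirus, the negative control virus of that vector, a Tmub1 knockdown lentivirus, the negative control virus of that vector, or no virus, with 1 array for each. RNA was taken 48 h after transduction. Tmub1 encodes a ubiquitin-like membrane protein, and the series asks how it affects transcription in hepatic cells.

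With 1 array a group, p-values could not be had, no difference could be set against the spread between samples, and every error below is the scanner software's own error of reading a spot. That error was about 0.20 on the log2 scale for most differences below, and 0.32 for Pdia4 with overexpression. A difference was called when it reached 2.5-fold, the fold named in the design text, with the brighter value above background. Levels are the log2 of the processed signal minus the 75th percentile of the array, and they compare arrays for 1 probe, not 1 gene with another.

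The endoplasmic reticulum holds its own set of chaperones. Hspa5, known as BiP, is an Hsp70 protein that binds unfolded chains and also keeps the stress sensors of the membrane silent. Calnexin (Canx) and calreticulin (Calr) hold glycoproteins by their sugar chains, and Pdia3 makes and rearranges disulfide bonds in the proteins that they hold. When unfolded proteins build up, the sensors Atf6, Ern1 and Eif2ak3 start the unfolded protein response, which raises many of these genes.

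A regulatory sequence known from the stress response of such genes is the ER stress response element. In it, a CCAAT box and the letters CCACG are held 9 bases apart. It was looked for as CCAAT, any 9 bases and CCACG, on both strands of the 250 bases before each start site in the RefSeq promoter table (build GRCr8). The related ER stress response element II was searched as ATTGG, any base and CCACG, and the unfolded protein response element as TGACGTGG. Of the 10 genes, 8 had a window, and 5 of these held the ER stress response element, against 0.0657% of all 33469 windows. The element was known beforehand from genes of this kind, so this count is a description and not a test. Hyou1 held element II, found in 0.0418% of windows, at 2 places, and also TGACGTGG, found in 0.52%, which overlaps the first of them. The other 2 genes with a window, Pdia4 and Dnajb9, matched none of the 3 sets of letters in this window. The 6 windows with a match are printed 5′ to 3′ along the strand of the gene, with the matches in capitals.
Hspa5: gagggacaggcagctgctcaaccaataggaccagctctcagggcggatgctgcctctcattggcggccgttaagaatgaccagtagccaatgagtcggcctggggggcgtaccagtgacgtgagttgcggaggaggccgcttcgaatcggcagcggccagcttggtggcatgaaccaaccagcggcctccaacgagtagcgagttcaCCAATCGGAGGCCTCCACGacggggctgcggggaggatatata
Hsp90b1: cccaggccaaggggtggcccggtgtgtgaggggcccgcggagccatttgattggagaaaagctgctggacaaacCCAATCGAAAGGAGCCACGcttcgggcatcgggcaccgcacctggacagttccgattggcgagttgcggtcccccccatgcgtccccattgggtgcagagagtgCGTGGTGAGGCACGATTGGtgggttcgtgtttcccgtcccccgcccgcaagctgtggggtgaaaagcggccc
Canx: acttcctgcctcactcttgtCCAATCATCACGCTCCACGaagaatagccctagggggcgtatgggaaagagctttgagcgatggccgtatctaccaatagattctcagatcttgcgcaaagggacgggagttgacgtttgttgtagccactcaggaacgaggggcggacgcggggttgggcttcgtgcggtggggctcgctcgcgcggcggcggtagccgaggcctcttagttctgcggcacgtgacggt
Calr: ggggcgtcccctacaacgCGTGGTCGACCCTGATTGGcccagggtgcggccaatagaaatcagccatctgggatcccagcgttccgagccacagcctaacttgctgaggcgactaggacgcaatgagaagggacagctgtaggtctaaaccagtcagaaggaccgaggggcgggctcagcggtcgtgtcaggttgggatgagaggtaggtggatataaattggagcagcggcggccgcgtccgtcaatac
Dnajc3: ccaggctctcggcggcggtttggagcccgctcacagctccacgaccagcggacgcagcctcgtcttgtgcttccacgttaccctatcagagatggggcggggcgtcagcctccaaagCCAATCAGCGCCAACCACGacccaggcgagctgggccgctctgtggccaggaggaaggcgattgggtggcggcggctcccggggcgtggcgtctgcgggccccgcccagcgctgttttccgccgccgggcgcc
Hyou1: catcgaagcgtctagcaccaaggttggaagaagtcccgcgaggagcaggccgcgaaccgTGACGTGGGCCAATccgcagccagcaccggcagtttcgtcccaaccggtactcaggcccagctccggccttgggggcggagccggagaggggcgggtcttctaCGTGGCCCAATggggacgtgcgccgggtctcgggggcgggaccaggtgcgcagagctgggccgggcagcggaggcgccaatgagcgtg
The windows lie at chr3:38452766-38453015 (plus strand) for Hspa5, chr7:23012294-23012543 (minus) for Hsp90b1, chr10:35157858-35158107 (minus) for Canx, chr19:40213117-40213366 (plus) for Calr, chr15:102432417-102432666 (plus) for Dnajc3 and chr8:53602632-53602881 (plus) for Hyou1. A second start site of Hyou1 is listed downstream, and its window held none of the 3. The match of Hspa5 lies at -43 to -25 from the start site. The match of Canx lies at -230 to -212, in the forward direction, and that of Calr at -232 to -214, in the reverse direction. Hsp90b1 held 2 matches, 1 on each strand. A match describes the letters and does not show that a factor binds there.

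The values of the arrays as a whole set the scale. The median processed signal of all spots was 143.9 with overexpression, 116.4 in its negative control, 356.2 with knockdown, 159.7 in its negative control and 329.4 in normal cells, and 66.8% to 86.4% of probes were well above background. The header of the normal array gives another scan date than those of the 4 transduced arrays, so scan and group cannot be told apart in comparisons with normal cells. Tmub1 itself had a level of 0.44 with overexpression against 0.37 in its negative control, and -1.42 with knockdown against 0.45 in its negative control. Its mRNA was thus 3.65-fold lower with knockdown (log2 difference -1.87, 95% interval from scanner error -2.27 to -1.47), while the array labelled overexpression differed from its negative control by 0.07 log2. Whether the Tmub1 probe reads the transcript of the overexpression virus was not tested. The labels give the cells as normal hepatocytes. Of 10 hepatocyte markers, 6 or 7 were well above background on each array, and Cps1 and Tat were not on any. Alb was not in knockdown, overexpression negative control and normal cells. Apoa1 was not with overexpression or in either negative control. Ttr was not with overexpression, with knockdown or in the knockdown negative control. All 8 fibroblast and stellate cell markers were well above background on the knockdown and normal arrays, and 7 on the others. Of 5 leukocyte markers, 4 were above background on the transduced arrays and 2 on the normal array, and the log2 of their summed level was 2.59 to 3.06 on the transduced arrays against -0.10 in normal cells. Their part in the differences from normal cells was not tested.

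With the scaling reported here, BiP was the most even of the 10 genes over the arrays. Hspa5 had a level of 4.55 with overexpression and 5.07 in its negative control, 4.92 with knockdown and 5.11 in its negative control, and 4.50 in normal cells. The 5 arrays spanned 0.61 log2 units, or 1.53-fold, and its difference in knockdown was -0.19 (-0.59 to 0.21). With cyclic loess the difference in knockdown alone was 0.66, so the span depended on the scaling. No comparison called Hspa5 with the reported scaling. In RNA from a whole culture, fewer expressing cells and less RNA per cell cannot be told apart, for this and for the genes below.

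The partners of BiP did not move together. Hyou1, a large Hsp70 relative that frees BiP of its nucleotide, had a level of 1.99 with knockdown against 4.18 in its negative control. The level was 4.40 with overexpression against 4.65 in its negative control, and 3.30 in normal cells. The knockdown array was thus the lowest for Hyou1, 4.55-fold below its own control, 6.32-fold below the overexpression negative control and 2.47-fold below normal cells, the last just short of the threshold. The processed signal of Hyou1 before scaling was 5636 units with knockdown and 12430 to 14050 units on the other arrays. The array 75th percentile was 1417 units with knockdown and 687.2 units in its negative control. Dnajb9, a J-domain protein that sends BiP to unfolded chains and to the sensor Ern1, had a level of -1.07 with knockdown against 1.11 in its negative control. Its level was 0.04 with overexpression against 0.27 in its negative control, and -0.97 in normal cells. Dnajb9 was 4.53-fold lower with knockdown than in its negative control, and the knockdown and normal arrays lay within 0.10 log2 of each other. The difference in knockdown thus went with a negative control that stood 4.23-fold above normal cells. Before scaling, the processed signal was 1482 units in that control and 671.1 to 684.1 units on the other arrays. The overexpression negative control stood 2.37-fold above normal cells only after scaling. Its signal was 671.1 units against 684.1 units in normal cells, with array 75th percentiles of 555.4 and 1341 units.

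Dnajc3, a J-domain protein that also holds back the kinase Eif2ak3, differed in the other direction. Its level was 0.29 with knockdown against -0.92 in its negative control, -1.36 with overexpression against -0.85 in its negative control, and -1.54 in normal cells. It was highest with knockdown, 2.32-fold above its control and under the threshold, and 3.57-fold above normal cells. Hsp90b1, the Hsp90 protein of the compartment, also known as endoplasmin, had a level of 4.33 with knockdown against 3.61 in its negative control. The level was 2.38 with overexpression against 1.70 in its negative control, and 2.73 in normal cells. Hsp90b1 was highest with knockdown and lowest in the overexpression negative control, with 6.21-fold between them, and the 3 control arrays alone spanned 1.91 log2 units.

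**Figure D1:**
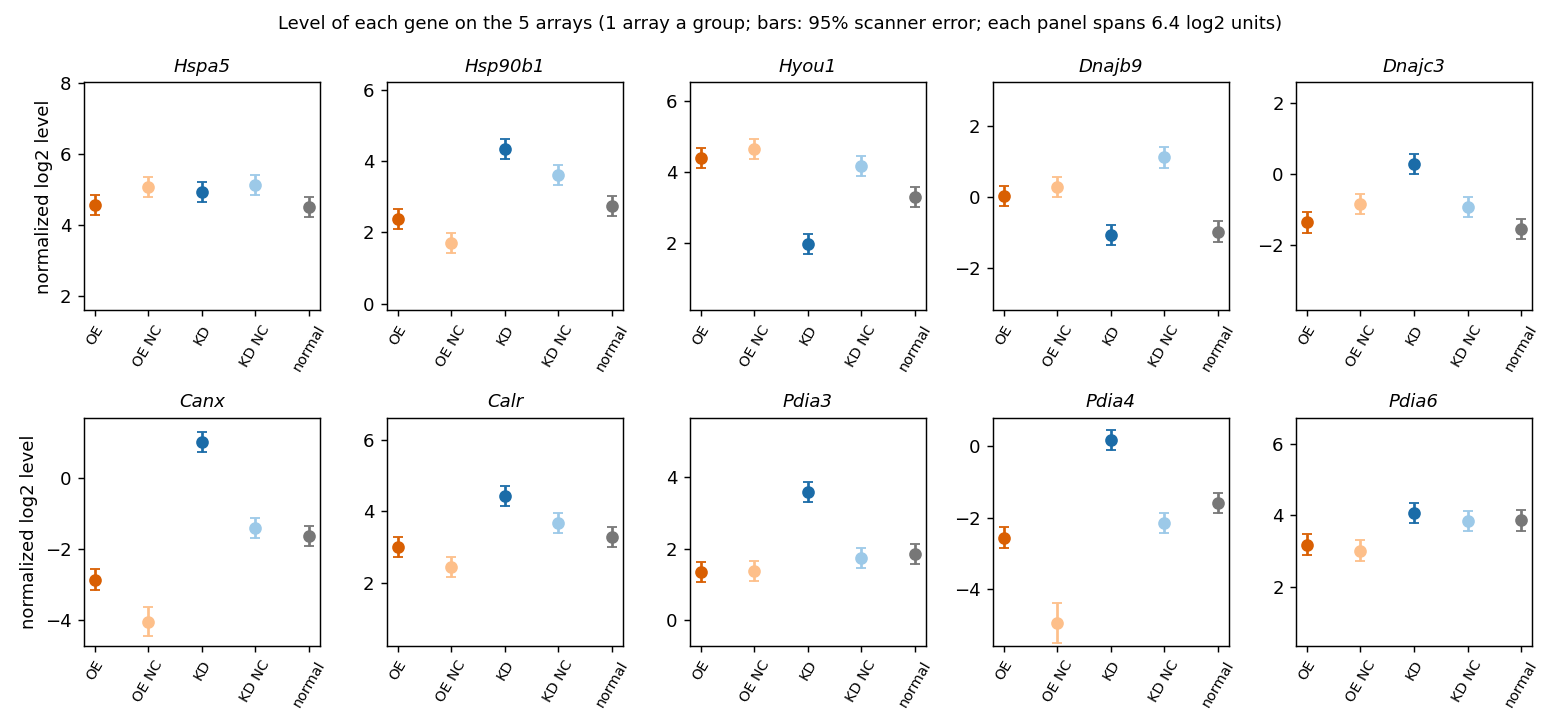
Normalized log2 level of each of the 10 genes on each of the 5 arrays (OE, Tmub1 overexpression; KD, knockdown; NC, the negative control of each; bars, 95% interval from scanner error; the panels share a span but not a zero). The knockdown array is the highest for 7 genes and the lowest for Hyou1 and Dnajb9, and Canx and Pdia4 reach their lowest value in the overexpression negative control.

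Of the glycoprotein chaperones, calnexin passed the threshold with knockdown and calreticulin did not. Canx had a level of 1.01 with knockdown against -1.40 in its negative control, -2.86 with overexpression against -4.04 in its negative control, and -1.63 in normal cells. The knockdown value stood above the other 4 arrays, 5.33-fold above its negative control (log2 difference 2.41, 2.01 to 2.81) and 6.22-fold above normal cells. The overexpression negative control was the lowest array for Canx, with a processed signal of 33.8 units against 2851 units on the knockdown array. Calr had a level of 4.43 with knockdown against 3.67 in its negative control, 2.99 with overexpression against 2.43 in its negative control, and 3.27 in normal cells. Calr put the 5 arrays in the same order as Hsp90b1, over a narrower range.

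Pdia3, the isomerase that works with calnexin and calreticulin, had a level of 3.60 with knockdown against 1.73 in its negative control. Its level was 1.35 with overexpression against 1.36 in its negative control, and 1.85 in normal cells. The 3 control arrays lay within 0.48 log2 units of each other, and the knockdown array stood 3.66-fold above its own control (log2 difference 1.87, 1.47 to 2.27), 3.38-fold above normal cells and 4.72-fold above the overexpression virus's control. Of the genes called in knockdown, Pdia3 was the one whose control arrays differed least.

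Pdia4, an isomerase with several active sites, had a level of 0.18 with knockdown against -2.16 in its negative control. It had a level of -2.57 with overexpression against -4.97 in its negative control, and -1.59 in normal cells. Pdia4 was therefore called higher in both comparisons, 5.06-fold with knockdown and 5.30-fold with overexpression. With overexpression the level was below that of the knockdown negative control by 0.41 log2 and below that of normal cells by 0.98, and the overexpression negative control array was the low one, with a processed signal of 17.7 units. Pdia6, a further isomerase, had levels of 3.18 with overexpression against 3.01 in its negative control, 4.08 with knockdown against 3.85 in its negative control, and 3.86 in normal cells. Pdia6 spanned 2.09-fold over the 5 arrays, and no comparison called it.

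Set side by side, the knockdown array was the highest for 7 of the 10 genes, against 25.8% of genes above background on all arrays. It was the lowest for 2 of 10, against 41.7% of such genes. These ranks are those of the reported scaling. In knockdown minus normal cells, Pdia6 was at 0.22 (-0.18 to 0.62) and Dnajb9 at -0.10 (-0.50 to 0.30), within scanner error. The overexpression negative control was the lowest for 5 of 10, against 17.6%. The genes closest in pattern, by the root mean square difference of their centred levels over the 5 arrays, were Hsp90b1 and Calr at 0.28 log2 units, then Calr and Pdia6 at 0.34. Canx and Pdia4 lay at 0.50 from each other, and Canx and Hyou1 farthest apart at 2.61. Among 10621 other genes above background on all arrays, those closest to Hspa5 were Laptm5, Guf1, Rad23b, Fkbp1a and Luc7l2, at 0.07 to 0.09.

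In the comparison of the overexpression virus with its negative control, 1 of the 10 genes was called, Pdia4, against 2.73% of 11774 genes (321 genes higher or lower). Of the 10 differences, 5 were above 0 and 5 below, and their median was 0.08 log2, beside 0.00 over all genes. After Pdia4, the next largest was Canx at 1.18 (0.67 to 1.68), and Hspa5 and Dnajc3 were at -0.51 each. Pdia4 was dim on the negative control array, and with normexp background correction its difference was 0.80 log2 and no gene of the 10 was called. With the knockdown virus's control in its place, the overexpression array was called for Canx instead, 2.75-fold lower, 1 of 10 genes against 4.08% of all genes, and the median was -0.61. Set against normal cells, it was called for 0 of the 10 genes, against 16.7% of all genes, and Canx came closest at -1.24 log2.

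In the comparison of the knockdown virus with its negative control, 5 of the 10 genes were called, 3 higher and 2 lower, against 18.7% of 12630 genes (2363 genes), with 8.54% of them called higher and 10.2% lower. Canx, Pdia4 and Pdia3 were higher, and Hyou1 and Dnajb9 lower. The median of the 10 was 0.74 log2, beside -0.22 over all genes. Of all genes, 1.37% lay as far above their control as Canx and 1.54% as far as Pdia4, while 1.57% lay as far below as Hyou1 and 1.59% as far below as Dnajb9. Canx, Pdia3 and Pdia4 were also called higher against each of the 3 control arrays, which 4.6% of genes were (562 of 12229). Hyou1 and Dnajb9 were not, since neither reached 2.5-fold below normal cells. The knockdown array was called for 7 of the 10 genes against the overexpression negative control, where 29.7% of all genes were, and for 5 of 10 against normal cells, where 30.5% of all genes were. The 5 against normal cells were Canx, Dnajc3, Pdia4, Pdia3 and Hsp90b1, all higher, at 2.64, 1.84, 1.77, 1.75 and 1.60 log2.

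**Figure D2:**
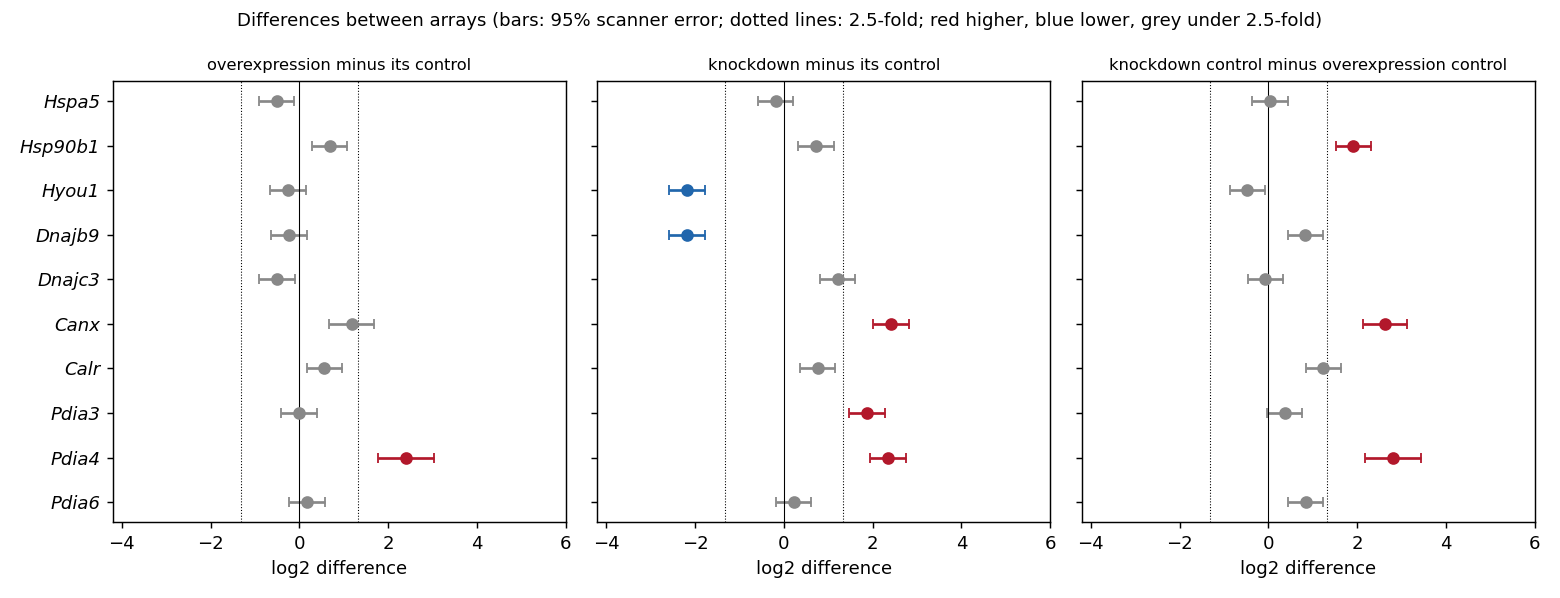
Log2 difference of each gene in overexpression minus its negative control, knockdown minus its negative control, and the knockdown control minus the overexpression control (bars, 95% interval from scanner error; dotted lines, 2.5-fold; red, higher; blue, lower). Pdia4 passes on the left, 3 genes pass upward and 2 downward in the middle, and Canx, Pdia4 and Hsp90b1 pass on the right.

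The 2 negative controls differed in some of the same genes. In the knockdown virus's negative control Hsp90b1, Canx and Pdia4 were 3.77-, 6.21- and 7.05-fold higher than in the overexpression virus's negative control, 3 of 10 genes called, against 8.62% of 11796 genes called in either direction. The median of the 10 was 0.84, beside -0.01 over all genes. For Hsp90b1 the difference between the controls was 1.91 log2, beside 0.72 in knockdown, and it was the larger of the pair under all 6 scalings. For Canx the values were 2.64 and 2.41, with scanner errors of 0.25 and 0.20, a gap those errors cover, and for Pdia4 2.82 and 2.34. With normexp the order turned, with 1.20 between the controls and 2.28 in knockdown for Canx, and 0.94 and 1.94 for Pdia4, and neither was called between the controls. Calr was at 1.24 between the controls and was called with quantile normalization, cyclic loess and the authors' values, at 1.40, 1.47 and 1.38. The comparisons with knockdown and with overexpression share no array, while the comparison of controls uses an array of each.

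Against normal cells, different genes passed the threshold in the 2 negative controls, while some directions were shared. Hyou1 was at 1.35 log2 in the overexpression negative control and at 0.88 in the knockdown negative control, and Dnajb9 at 1.24 and 2.08. Hsp90b1, Canx and Calr were below 0 in the first of these controls and above 0 in the second. The overexpression negative control was lower for Pdia4, by 10.4-fold, and for Canx, by 5.32-fold, and higher for Hyou1, by 2.56-fold, so that 3 of 10 were called against 17.6% of 13429 genes. Before scaling, the signal of Hyou1 was 13960 units in that control and 13180 units in normal cells, with array 75th percentiles of 555.4 and 1341 units. The call of Hyou1 was lost under 4 of the 5 other scalings, with 0.89 log2 as the lowest value, and held with normexp at 1.38. Pdia4 and Canx were dim on the overexpression negative control array, and with normexp their differences were -1.49 and -1.07 log2, the second short of the threshold. Hsp90b1 was at -1.04, and past the threshold at -1.42 with cyclic loess. The knockdown negative control was called for Dnajb9 alone, 4.23-fold higher, against 16.6% of 13478 genes. The other 9 genes lay between -0.57 and 0.88 log2 in that comparison. Hspa5 was at 0.57 log2 in the overexpression negative control minus normal cells and at 0.61 in the knockdown negative control minus normal cells. With cyclic loess these were -0.01 and 0.37, so the direction of the first was not settled.

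**Figure D3:**
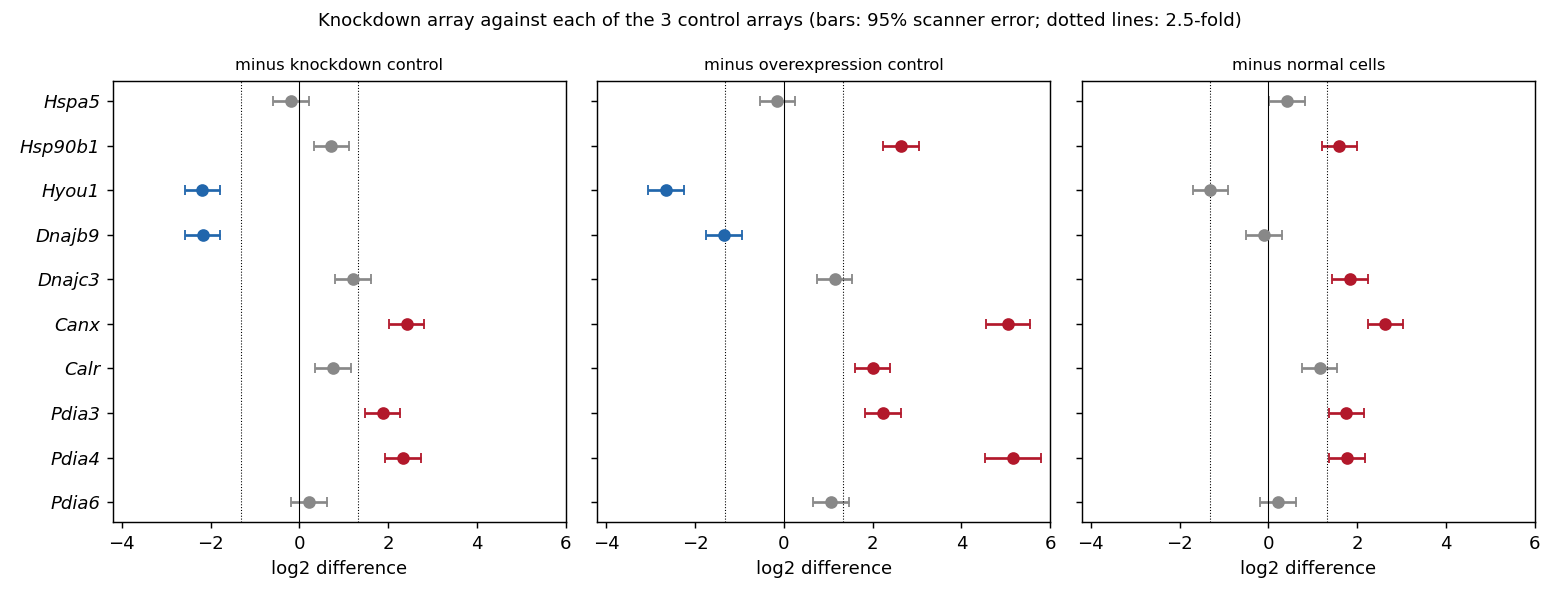
Log2 difference of the knockdown array minus each of the 3 control arrays for the 10 genes (bars, 95% interval from scanner error; dotted lines, 2.5-fold; red, higher; blue, lower; grey, under 2.5-fold). Canx, Pdia3 and Pdia4 lie right of the upper line in all 3 panels, Hspa5 lies between -0.19 and 0.42, and Dnajb9 moves from -2.18 against its own control to -0.10 against normal cells.

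Genes that work with these chaperones were read from 6 further lists, and cytosolic and mitochondrial heat shock proteins as a comparison outside the compartment. Read from its brightest probe, no gene of the 7 lists was called with overexpression, where 2.73% of all genes were. Of the other probes of Hspa8, the highest was at 1.36 log2 there, past 2.5-fold, and the rest at 1.17 and 0.50, with 0.42 on the brightest. The other probe of Atf6 was at 1.35, with its negative control value below background, and the brightest at -0.38. In knockdown the calnexin cycle list had 2 of 5 readable genes higher and 0 lower, with a median of 0.39. They were Lman1, a lectin that carries glycoproteins out of the compartment, at 5.56-fold, and Uggt1, which sends misfolded glycoproteins back to calnexin, at 4.89-fold. Over all genes, 18.7% were called in knockdown and the median was -0.22.

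Among the other disulfide isomerases and oxidases, 2 of 14 were higher and 0 lower in knockdown, with a median of 0.19. Each list in this paragraph is read beside 8.54% of all genes higher and 10.2% lower. Erp29, a thioredoxin-fold chaperone, was 4.41-fold and Tmx2, a membrane-bound relative of thioredoxin, 2.76-fold higher, while P4hb, the founding member of the isomerase family, had a log2 difference of -0.11. Of 16 BiP co-chaperones and folding helpers, Mesd, a chaperone of lipoprotein receptors, was 3.18-fold higher and Sec63, a J-domain protein of the translocon, 3.67-fold lower, with a median of -0.22. Dnajb11, a J-domain partner of BiP, stood at 0.85 and Sdf2l1, another component of BiP complexes, at -0.58, both under the threshold.

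The sensors and transcription factors of the unfolded protein response had a median of -0.46, with 2 of 15 higher and 0 lower. Here too, the shares of all genes called in knockdown were 8.54% higher and 10.2% lower, for each list. Atf6, a sensor that is cut to a transcription factor, was 2.97-fold higher, with 2.04 log2 on its other probe, and Wfs1, a membrane protein of the compartment, was at least 7.04-fold higher, its probe being below background in the negative control. For Wfs1 that control was the low array. The knockdown array stood 1.39-fold above normal cells and 1.59-fold above the overexpression negative control, and neither difference was called. Xbp1, whose spliced mRNA encodes a main activator of these chaperones, had a difference of -0.94, Atf4 of -0.72, and Ddit3, an effector of prolonged stress, of -0.46. Of 18 degradation genes, 1 was higher and 0 lower, the conjugating enzyme Ube2j1 at 3.33-fold, with a median of 0.06. Among 19 genes of the translocon and its processing enzymes, the channel subunit Sec61a1 was 2.51-fold higher, just past the threshold, while Sec61b, of the same channel, and Spcs2, of the signal peptidase, were 3.73- and 3.80-fold lower, with a median of -0.46. Some of these calls were lost under other scalings: Atf6, Tmx2, Wfs1 and Sec61a1 stood at 1.27, 1.12, 0.69 and 1.06 with normexp, and Sec61b and Spcs2 at -1.03 and -1.16 with cyclic loess.

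Outside the compartment, 1 of 13 heat shock genes was higher and 4 were lower in knockdown, with a median of -0.70. The shares over all genes were 8.54% higher and 10.2% lower. Hspa9, the mitochondrial Hsp70 protein, was 3.15-fold higher, and Hspa4, Hspa8 and Hspb1 were 3.34-, 2.74- and 2.70-fold lower. The fourth lower gene, Hspe1, a mitochondrial co-chaperonin, stood at -1.34 log2 and was named after its value was seen. The calls of Hspa4, Hspa8 and Hspb1 depended on the scaling. With quantile normalization the log2 differences were -1.22, -0.63 and -0.90, none past the threshold, and in the authors' deposited log2 table none was either. The other probes of Hspa8 gave -0.35 to -1.46.

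**Figure D4:**
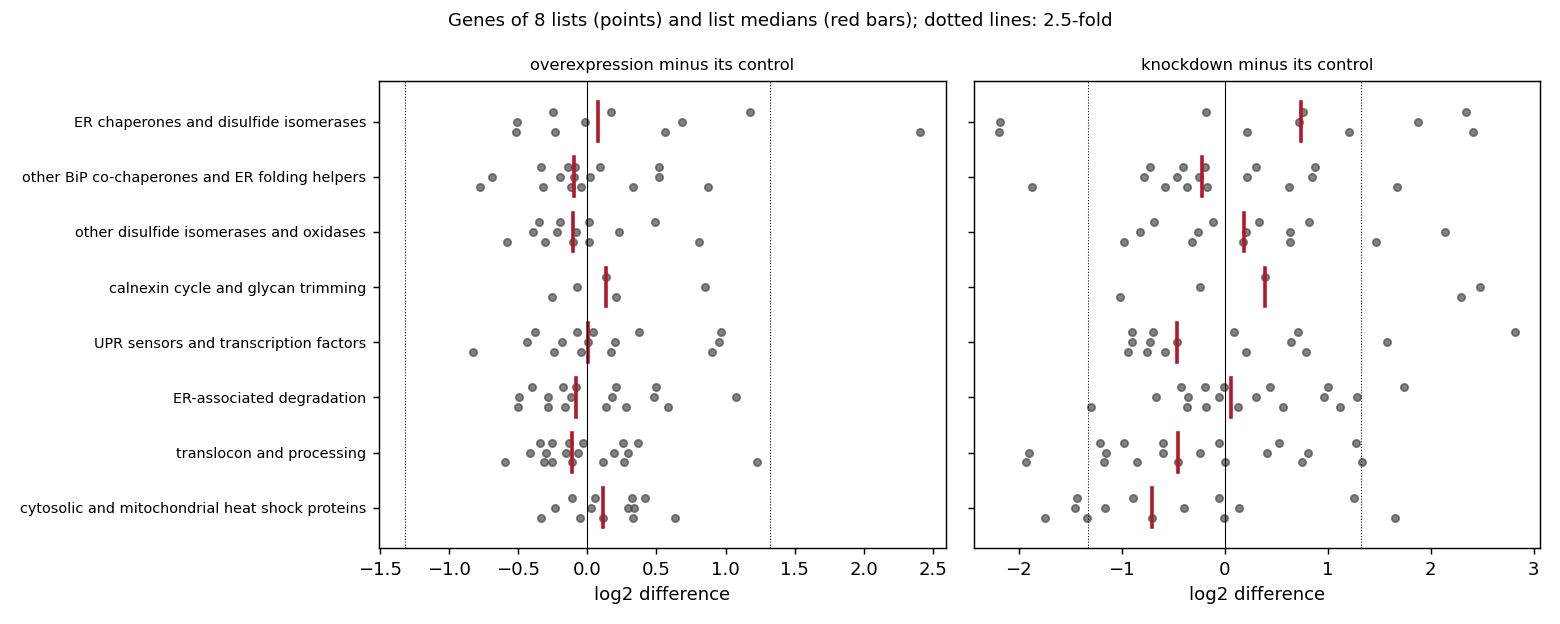
Log2 difference of each readable gene (points) and the median (red bar) of the 10 genes and of the 7 further lists, in overexpression minus its negative control on the left and in knockdown minus its negative control on the right (dotted lines, 2.5-fold). In knockdown the 10 genes have a median of 0.74 and points on both sides of the lines, and the heat shock proteins a median of -0.70.

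The choice of scaling moved several of the 10 genes in knockdown. Hsp90b1 was at 0.72 log2 in knockdown as reported, at 1.39 with quantile normalization and at 1.41 in the authors' deposited log2 table, past the threshold in both of these. Calr was at 0.76, and at 1.44, 1.40 and 1.46 with quantile normalization, cyclic loess and the authors' values. Dnajc3 was at 1.21, and past the threshold at 1.52 when the percentile was taken over probes above background on all arrays. Hspa5 was at -0.19 as reported, at -0.04 with normexp, at 0.12 with that percentile, and at 0.56 to 0.66 with quantile normalization, the authors' values and cyclic loess, so its direction was not settled. The 5 calls in knockdown kept their direction and their side of the threshold under all 5 other scalings, with ranges of 2.28 to 2.72 for Canx, 1.94 to 2.65 for Pdia4, 1.87 to 2.46 for Pdia3, -2.19 to -1.49 for Hyou1 and -2.26 to -1.87 for Dnajb9.

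**Figure D5:**
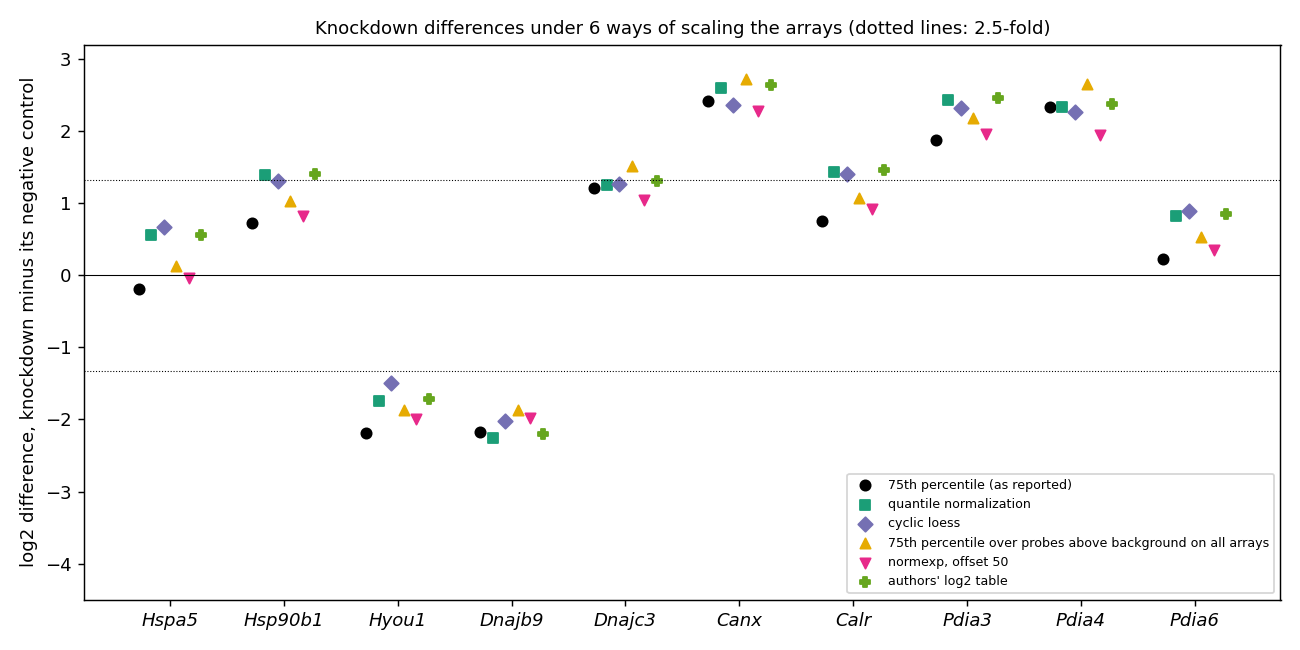
Log2 difference of each gene in knockdown minus its negative control under the scaling used in the text and 5 others (marker shapes; dotted lines, 2.5-fold). Canx, Pdia3, Pdia4, Hyou1 and Dnajb9 stay beyond the lines, Hsp90b1, Calr and Dnajc3 cross the upper one under some scalings, and Hspa5 changes sign.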

How the data were processed

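Expression in the BRL-3A line was read on one-colour Agilent arrays designed on rat build rn4, 1 array a group. The deposited scanner files hold processed signals in intensity units, which Agilent Feature Extraction 11.0.1.1 had already background-subtracted and detrended within the array, per the file headers; version 9.1 stands in the submitters' processing notes. The deposited log2 table of 30423 entries has columns with equal quartiles, as quantile normalization leaves them; its software was not given in the sources at hand.

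Control spots and spots that the software had marked as outliers were left out, replicate spots of a probe were averaged on the log2 scale, and the 75th percentile of each array was subtracted. Probes were named through the RefSeq table of build GRCr8 by accession (18005 of 30367), each gene took the value of its brightest named probe on average, and values below background were raised to the array's lowest value above it. Alternatives used limma 3.58.1 in R 4.3.3 (quantile, cyclic loess, and normexp with an offset of 50 on the median signals, since the files hold no mean signal). The code of the calling rule was run on simulated data that held scanner error alone, with all probes set above background. That run cannot show how often calls would arise from the spread between samples, nor does it cover the background rule.

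The genes described and the lists were chosen with earlier results of these data known. The text names Tmub1, the 10 genes and the 5 genes closest to Hspa5 in pattern. It also names up to 3 genes a direction and list called in the overexpression or knockdown comparison. The stress genes named without a call (P4hb, Dnajb11, Sdf2l1, Xbp1, Atf4 and Ddit3) were added after their values were seen. Creld2 and Derl3, also named without a call, fall outside these rules too. The number of arrays limits the precision.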

Additional observations from a re-analysis of the deposited data

How the results depend on the processing

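No paired analysis was possible because each group has 1 array. The number of the 10 genes called with overexpression was 1, and it was 0 with normexp background correction, 0 against normal cells, 0 against the mean of both negative controls, 0 against all 3 control arrays and 2 at a 2-fold threshold. The median with overexpression was 0.08 log2, and -0.61 against the other negative control. In knockdown 5 genes were called, and 3 against all 3 control arrays, a setting chosen after seeing the data. The knockdown median was 0.74, and it was 1.32 with quantile normalization, 1.285 with cyclic loess, 1.36 in the authors' values, 1.57 against the other negative control, 1.38 against normal cells and 1.28 against the mean of both negative controls. Between the negative controls 3 genes were called, and 1 with normexp, where Canx fell short at 1.20 and Pdia4 at 0.94. In the overexpression negative control minus normal cells 3 genes were called, 1 higher and 2 lower, and 5 at a 2-fold threshold. With quantile normalization, the authors' values and the percentile over probes above background on all arrays 0 were higher and 2 lower, with cyclic loess 0 and 3, and with normexp 1 and 1. Among all genes called there 43.3% were higher, and 24.4% to 81.7% under other scalings; in the knockdown negative control minus normal cells it was 42.6%, and 29.6% to 74.6%. With overexpression minus its negative control it was 62.9%, and 49.4% to 67.2%, and between the negative controls 60.7%, and 46.2% to 66.5%. The cause of these shifts was not tested. Of all genes called in knockdown 45.7% were higher, against 56.6% with cyclic loess, 34.0% with normexp and 71.1% when the percentile was taken over probes above background on all arrays; the median of all genes was -0.22 as reported and -0.42 and 0.09 under the last 2 of these. Of 50 values for the 10 genes in knockdown under other scalings, 44 kept their side of the threshold and 6 passed it where the reported value had not.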

Other observations

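Beyond the 10 genes, the ER stress response element was found before 16 others of the 21 genes that hold it, 10 of which were on the array. In knockdown minus its negative control these 10 had a median of 0.11 log2, with 0 called higher and 1 lower, Ppm1l, a protein phosphatase, at -2.32, named after its value was seen. Over all genes, 8.54% were called higher and 10.2% lower in this comparison. Creld2, which is induced in the unfolded protein response, stood at 0.30, Derl3, a channel protein of degradation, at 0.13 and Xbp1 at -0.94. With overexpression 0 of the 9 that could be called passed the threshold, where 2.73% of all genes did.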
